A study of Mus musculus with 4 samples.

Results

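Interleukins and interleukin receptors were taken from a table of RNA levels in mouse bone marrow cells sorted as B220+CD43+, as every entry whose gene name began with Il and a digit, except Il7r, Il2rg, Il2ra, Il2rb, Il4ra and Il21r. This gave 78 of the 23275 entries, made up of 41 ligand entries, 35 receptor entries and 2 others, namely Il18bp, a soluble inhibitor of IL-18, and Il4i1, an amino acid oxidase. In the Hdac3 KO group the mice were Hdac3F/-Mb1cre+/-, with 1 conditional and 1 null allele of Hdac3, which encodes the deacetylase of the NCoR and SMRT corepressor complexes. In the WT group the mice were Hdac3+/+Mb1cre+/-, so the recombinase allele was shared by all mice. All were C57BL/6 mice, 8 weeks old, with 2 libraries per genotype and cells of 2 mice pooled in each library. Mb1-cre acts from the early B-lineage stage onward, so any sorted cells of another lineage in the Hdac3 KO group would keep the conditional allele and still carry the null allele. Hdac3 itself was 22.0 FPKM in Hdac3 KO cells and 46.8 FPKM in WT cells, 47.1% of the WT level. This is a value for the whole gene, and values per exon were not available. Levels are the authors' single FPKM value per genotype (fragments per kilobase of transcript, scaled to library size), with no value per library, no replicate spread and no known depth.

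Interleukins are secreted proteins by which leukocytes signal to each other, and their receptors are mostly pairs of chains, of which a ligand-specific chain joins a chain shared within a family. Receptors of the IL-1 family and of the IL-17 family signal through adaptors and kinases that lead to NF-kappa-B, whereas most others signal through JAK kinases and STAT factors. In bone marrow, early B-lineage cells depend on IL-7, while IL-1 and IL-18 are made largely by myeloid cells, IL-33 largely by stromal and epithelial cells, and the receptors for IL-18 and IL-33 are best known from T, NK and innate lymphoid cells. B220+CD43+ sorted cells include early B-lineage cells, and markers of other cell types were present in the same libraries, as given with the marker lists below.

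In Hdac3 KO cells the IL-1 family ligands Il1b, Il1rn, Il33 and Il1f9 and the receptor chain Il5ra fell, while the receptor chains Il12rb1, Il10ra, Il17ra and Il18r1 and the ligand Il16 rose. Of the 78 entries, 37 had enough fragments to be tested by the authors, namely 11 ligands, 25 receptors and Il18bp. An entry was called changed where the authors' deposited table gives a q-value under 0.05. By that rule 5 members were higher and 5 lower in Hdac3 KO cells, where 6.95% of all 12683 tested entries were called, 2.81% as higher and 4.14% as lower. At a q-value under 0.01 the counts were 4 higher and 3 lower, beside 1.49% and 2.72% of all tested entries, and at 0.10 they were 5 and 6, beside 3.86% and 5.31%. With at least a 2-fold difference they were 1 and 3, beside 1.02% and 2.33%. Among ligands 1 rose and 4 fell, and among receptors 4 rose and 1 fell. The median log2 fold change was -0.59 over the 11 tested ligands and 0.27 over the 25 tested receptors, against 0.03 over all tested entries. Of the 11 tested ligands 5 had higher and 6 lower values, beside 6779 and 5904 of all tested entries. The ligand median is the value of Il18, which did not pass, and all 5 tested IL-1 family ligands were lower. Summed over the 41 ligand entries, the level was 168 FPKM in Hdac3 KO cells and 125 FPKM in WT cells. Members that passed the filter on fragments may have passed it through the genotype in which they were high, so these counts and medians describe the tested members and not all 78.

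The windows before the start sites of 4 called ligand genes are shown because 3 of these genes are IL-1 family ligands that fell together and Il16 is the ligand that rose. Each holds the 250 bases before the start site, 5′ to 3′ on the strand of the gene, from RefSeq on GRCm38.p6, the assembly called mm10. RefSeq held starts for 7 of the 10 called genes, and 1 window is printed per gene, with none that overlapped annotated exons. Capitals mark matches on either strand to the AP-1 motif TGANTCA, to the TATA box written as TATAAA, or to the PU.1 core written as GAGGAA.
Il1b, chr2:129371140-129371389, minus strand: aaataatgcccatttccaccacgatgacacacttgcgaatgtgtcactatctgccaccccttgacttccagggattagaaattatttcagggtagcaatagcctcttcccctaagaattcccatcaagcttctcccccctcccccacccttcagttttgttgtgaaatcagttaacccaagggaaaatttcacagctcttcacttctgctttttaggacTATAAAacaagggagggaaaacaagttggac
Il1f9, chr2:24186226-24186475, plus strand: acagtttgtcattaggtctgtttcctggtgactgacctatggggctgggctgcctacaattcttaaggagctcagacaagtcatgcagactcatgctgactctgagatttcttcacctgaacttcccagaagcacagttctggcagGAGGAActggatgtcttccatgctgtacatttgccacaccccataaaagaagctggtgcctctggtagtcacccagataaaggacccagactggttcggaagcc
Il33, chr19:29924863-29925112, plus strand: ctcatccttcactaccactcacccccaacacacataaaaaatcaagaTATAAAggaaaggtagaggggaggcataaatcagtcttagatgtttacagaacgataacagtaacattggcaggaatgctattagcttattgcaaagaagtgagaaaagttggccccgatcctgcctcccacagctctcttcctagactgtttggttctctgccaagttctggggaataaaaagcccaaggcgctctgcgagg
Il16, chr7:83735540-83735789, minus strand: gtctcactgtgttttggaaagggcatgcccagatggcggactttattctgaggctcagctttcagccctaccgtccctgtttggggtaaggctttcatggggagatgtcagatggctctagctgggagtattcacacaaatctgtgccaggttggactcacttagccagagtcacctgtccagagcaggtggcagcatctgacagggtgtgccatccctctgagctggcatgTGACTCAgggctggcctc

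The Il1b window held the TATA box from position -31 to -26 relative to its start site, and the printed Il33 window held it from -203 to -198. A second Il33 start site in RefSeq, whose window is not printed, had it from -29 to -24. The PU.1 core lay from -104 to -99 before Il1f9. The Il16 window held the AP-1 motif from -18 to -12, which reads as a match on both strands, and no motifs overlapped. In windows not printed, the AP-1 motif lay from -141 to -135 before Il1rn and from -99 to -93 before Il5ra, both called lower. Before a start site of Il18r1, called higher, the PU.1 core lay from -6 to -1. The AP-1 motif and the PU.1 core thus each occurred before genes called higher and genes called lower. Among 32536 windows of the same length in RefSeq, 6.73% held the AP-1 motif, 12.3% the TATA box and 23.4% the PU.1 core. Il33 and Il16 each have further start sites in RefSeq, and which of them was used in these cells was not tested.

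Among the ligands, Il1b, the inflammatory cytokine made as a precursor and cut by caspase-1, was 0.647 FPKM in Hdac3 KO cells and 3.58 FPKM in WT cells. Its log2 fold change was -2.47 ± 0.50, where the error throughout is the log2 fold change divided by the authors' test statistic, and q = 0.0016 in the authors' deposited table. This error is not a spread between replicates, and the deposited p-values do not follow from it under a normal distribution. Il1rn, the antagonist that occupies the IL-1 receptor without signalling, was 0.480 FPKM in Hdac3 KO cells and 2.29 FPKM in WT cells, a log2 fold change of -2.26 ± 0.54 with q = 0.0016 in the authors' deposited table. The agonist was thus at 18.1% and its antagonist at 20.9% of the WT level, and the difference between them was not tested. Il1b shares its locus with the non-coding entry Gm14047, which was 0.105 FPKM in Hdac3 KO cells and 0.110 FPKM in WT cells.

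Il33, an alarmin released from damaged cells, was 2.21 FPKM in Hdac3 KO cells and 4.92 FPKM in WT cells. The log2 fold change was -1.16 ± 0.39 and q = 0.0029 in the authors' deposited table. Il1f9, which encodes the IL-36 gamma cytokine of epithelia and myeloid cells, was 3.91 FPKM in Hdac3 KO cells and 6.87 FPKM in WT cells, with a log2 fold change of -0.81 ± 0.30 and q = 0.0386 in the authors' deposited table. Il18, the partner cytokine of IL-1 beta in inflammasome processing, did not pass, at 5.22 FPKM in Hdac3 KO cells and 7.88 FPKM in WT cells, q = 0.316 in the authors' deposited table. All 5 tested IL-1 family ligands had lower values in Hdac3 KO cells, beside 5904 of all 12683 tested entries. Il1a, which was not tested, was 0.174 FPKM in Hdac3 KO cells and 0.120 FPKM in WT cells. The summed level of the IL-1 family ligands, with the untested members, was 12.6 FPKM in Hdac3 KO cells against 25.7 FPKM in WT cells. With p-values taken instead from the authors' statistic as a normal deviate, which called 1.08% of tested entries as higher and 2.65% as lower, Il1b and Il1rn kept adjusted p-values of 9.6e-05 and 0.0019. Il33 and Il1f9 were at 0.0745 and 0.137 by that normal approximation.

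Most myeloid and neutrophil markers also fell. Of 12 tested myeloid and neutrophil markers, 9 fell and 1 rose, beside 4.14% and 2.81% of all tested entries. The 12 summed to 2581 FPKM in Hdac3 KO cells and 10404 FPKM in WT cells. Cd14, the 1 that rose, was 2.94 FPKM in Hdac3 KO cells and 0.602 FPKM in WT cells. Itgam and Elane had lower values in Hdac3 KO cells and did not pass. The neutrophil proteins S100a8 and S100a9 were 1172 and 831 FPKM in Hdac3 KO cells, against 4815 and 3333 FPKM in WT cells. None of these markers was at 0 in either genotype, and their part in the lower Il1b, Il1rn, Il33 and Il1f9 was not tested. The 2 tested stromal and endothelial markers, Pecam1 and Cdh5, had higher values in Hdac3 KO cells and did not pass. The rest of that list was not tested. Col1a1 and Cxcl12 were 0.103 and 0.294 FPKM in Hdac3 KO cells, against 0.0428 and 0.233 FPKM in WT cells, and Col3a1 was at 0 in both genotypes. In a sorted bulk sample, fewer cells of a type and less RNA per cell cannot be told apart.

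Il16, a chemoattractant cut from a large PDZ-domain precursor and unrelated in fold to the other families, was the most abundant ligand entry and the only ligand called higher. It was 97.7 FPKM in Hdac3 KO cells and 57.9 FPKM in WT cells, a log2 fold change of 0.75 ± 0.33 with q = 0.0086 in the authors' deposited table. In the GENCODE annotation of the same build, 15.3% of its exon bases are shared with Stard5 on the opposite strand, which was 11.7 FPKM in Hdac3 KO cells and 9.15 FPKM in WT cells, so the Il16 level is less certain.

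Il12a, the smaller subunit of IL-12, was 51.4 FPKM in Hdac3 KO cells and 36.1 FPKM in WT cells and did not pass, with a log2 fold change of 0.51 ± 0.28 and q = 0.107 in the authors' deposited table. The larger subunit, Il12b, which IL-12 and IL-23 share, was listed at 0 in Hdac3 KO cells and at 0.0105 FPKM in WT cells. Ebi3, with which the Il12a subunit forms IL-35, was 6.56 FPKM in Hdac3 KO cells and 6.52 FPKM in WT cells. Il16 and Il12a together made up 89.0% of the summed level of all ligand entries in Hdac3 KO cells and 75.4% in WT cells.

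Of the other tested ligands, Il15, which supports NK and memory T cells, was 3.70 FPKM in Hdac3 KO cells and 2.45 FPKM in WT cells. Il17c was 0.242 FPKM in Hdac3 KO cells and 0.615 FPKM in WT cells, a log2 fold change of -1.35 ± 0.91, and Il11 and Il17d stayed under 0.7 FPKM. None of these 4 passed the authors' test. The remaining 30 ligand entries were not tested, the highest being Il17f at 0.219 FPKM in Hdac3 KO cells and 0.169 FPKM in WT cells. Of these, 16 were listed at 0 in both genotypes, among them Il3, Il9, Il13, Il21, Il22, Il25 and Il31.

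**Figure D1:**
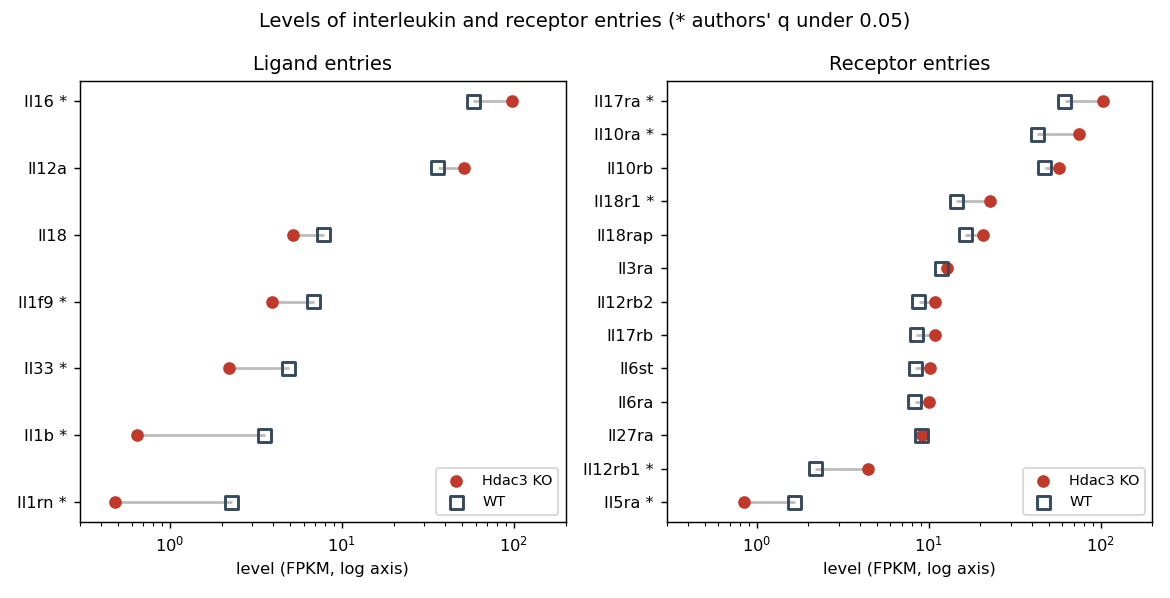
Levels in FPKM on a log axis of the ligand entries (left) and receptor entries (right) that reached 5 FPKM in 1 genotype or were called, with red circles for Hdac3 KO and open squares for WT, 1 value per genotype. Il1b and Il1rn show the widest gaps, with Hdac3 KO values of 0.647 and 0.480 FPKM, and Il17ra and Il16 are the highest receptor and ligand.

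Among the receptors, Il17ra, the signalling chain shared by receptors of the IL-17 family, was the most abundant in both genotypes. It was 103 FPKM in Hdac3 KO cells and 62.0 FPKM in WT cells, a log2 fold change of 0.73 ± 0.30 with q = 0.0095 in the authors' deposited table. Il10ra, the ligand-binding chain for the anti-inflammatory cytokine IL-10, was 75.3 FPKM in Hdac3 KO cells and 42.7 FPKM in WT cells, with a log2 fold change of 0.82 ± 0.27 and q = 0.0029 in the authors' deposited table. Il18r1, the ligand-binding chain for IL-18, was 22.9 FPKM in Hdac3 KO cells and 14.4 FPKM in WT cells, a log2 fold change of 0.66 ± 0.31 with q = 0.0272 in the authors' deposited table. Il12rb1, a chain shared by the IL-12 and IL-23 receptors, was 4.43 FPKM in Hdac3 KO cells and 2.19 FPKM in WT cells, with a log2 fold change of 1.01 ± 0.37 and q = 0.0016 in the authors' deposited table.

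The 4 higher receptor chains thus came from 4 families (IL-17, IL-10, IL-1 and IL-12) and rose by 1.58-fold to 2.02-fold. None of them shared its locus with another entry or its exons with another annotated gene. Under the normal approximation none of the 4, nor Il16, passed, with adjusted p-values of 0.122 for Il12rb1, 0.0705 for Il10ra, 0.217 for Il17ra, 0.366 for Il18r1 and 0.292 for Il16. In the same libraries 4 of 8 B-lineage markers rose, beside 2.81% of all tested entries. The 8 summed to 2788 FPKM in Hdac3 KO cells and 1736 FPKM in WT cells. Of 13 tested T, NK and innate lymphoid markers, 2 were called and both rose, beside the same 2.81%. Sums over all 14 were 679 FPKM in Hdac3 KO cells and 610 FPKM in WT cells. The 7 plasmacytoid dendritic cell markers summed to 3362 FPKM in Hdac3 KO cells and 2588 FPKM in WT cells, and none passed the authors' Cuffdiff test or the normal approximation, with 2 higher and 0 lower at an unadjusted p under 0.05. No marker in these 3 lists was at 0, and their part in the higher receptor values was not tested.

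Il5ra, the chain that gives the IL-5 receptor its specificity on eosinophils, basophils and some B cells, was the only receptor called lower. It was 0.851 FPKM in Hdac3 KO cells and 1.67 FPKM in WT cells, a log2 fold change of -0.97 ± 0.39 with q = 0.0336 in the authors' deposited table, and 0.205 by the normal approximation. Its log2 fold change shrank to -0.53 once 1 FPKM was added to both values. Beside 4.14% of all tested entries, 4 of 8 basophil and mast cell markers fell, among them the basophil proteases Mcpt8 and Prss34. The list summed to 6.39 FPKM in Hdac3 KO cells and 27.8 FPKM in WT cells. Of 3 tested eosinophil markers none passed the authors' Cuffdiff test or the normal approximation, with 1 lower at an unadjusted p under 0.05, and the 4 genes of that list summed to 2.50 FPKM in Hdac3 KO cells and 4.29 FPKM in WT cells. None of these markers was at 0, and their part in the lower Il5ra was not tested.

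Il1r2, the decoy receptor that binds IL-1 without signalling, had the smallest q-value among members that did not pass. It was 1.23 FPKM in Hdac3 KO cells and 2.47 FPKM in WT cells, a log2 fold change of -1.004 ± 0.52 with q = 0.0879 in the authors' deposited table. Il1r1, the signalling receptor for IL-1, was 0.343 FPKM in Hdac3 KO cells and 0.543 FPKM in WT cells and did not pass either.

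Of the 11 receptors that reached 5 FPKM in 1 genotype, 8 did not pass, with log2 fold changes between 0.00 and 0.36. Il10rb, the second chain of the IL-10 receptor, was 57.2 FPKM in Hdac3 KO cells and 47.3 FPKM in WT cells, with 14.9% of its exon bases annotated also to Gm21970 on the same strand. Il18rap, the signalling chain for IL-18, was 20.7 FPKM in Hdac3 KO cells and 16.4 FPKM in WT cells. Il3ra, the specific chain for IL-3 and a marker of plasmacytoid dendritic cells and basophils, was 12.8 FPKM in Hdac3 KO cells and 11.9 FPKM in WT cells.

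Il12rb2, the chain through which IL-12 activates STAT4, was 10.96 FPKM in Hdac3 KO cells and 8.76 FPKM in WT cells, but 40.04% of its annotated exon bases are shared with Serbp1 on the opposite strand. Serbp1 was 131 FPKM in Hdac3 KO cells and 141 FPKM in WT cells, and no source used here says whether the libraries were stranded, so the Il12rb2 level is uncertain. Il17rb, the IL-25 receptor chain, was 10.8 FPKM in Hdac3 KO cells and 8.47 FPKM in WT cells. Il6ra, the IL-6 binding chain, was 10.1 FPKM in Hdac3 KO cells and 8.31 FPKM in WT cells. Il6st, the gp130 chain shared by the IL-6 family, was 10.2 FPKM in Hdac3 KO cells and 8.36 FPKM in WT cells. Il27ra, the IL-27 receptor chain, differed least, at 9.11 FPKM in Hdac3 KO cells and 9.10 FPKM in WT cells, and after centring on the median entry its log2 fold change was -0.02.

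The rest of the tested members were 15 entries under 5 FPKM, with log2 fold changes between -0.66 and 0.73 and q-values of 0.328 or more in the authors' deposited table. They included Il1rap, the accessory chain of the IL-1, IL-33 and IL-36 receptors, at 3.99 FPKM in Hdac3 KO cells and 4.37 FPKM in WT cells. Il15ra, which presents IL-15 to neighbouring cells, was 3.30 FPKM in Hdac3 KO cells and 3.56 FPKM in WT cells. Il13ra1, which pairs with the IL-4 receptor chain, was 1.51 FPKM in Hdac3 KO cells and 2.06 FPKM in WT cells. Il18bp was 2.62 FPKM in Hdac3 KO cells and 2.85 FPKM in WT cells. The 10 receptor entries that were not tested stayed at or under 0.303 FPKM, the level of Il17re in Hdac3 KO cells, and Il13ra2 and Il1rapl1 were at 0 in both genotypes.

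**Figure D2:**
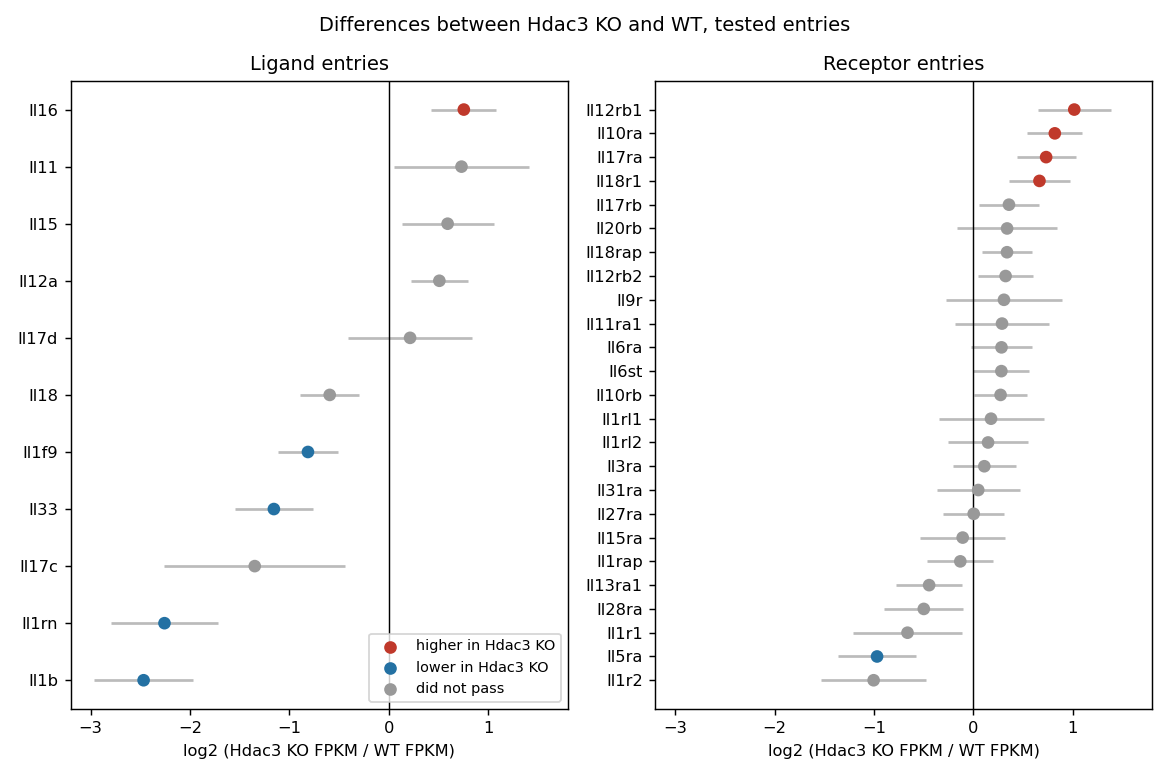
Log2 ratio of the Hdac3 KO to the WT level for the 11 tested ligands (left) and 25 tested receptors (right), with bars for the log2 fold change divided by the authors' test statistic. Red and blue points passed the authors' q-value under 0.05 as higher and lower, and grey points did not. The 4 lower ligands are Il1b, Il1rn, Il33 and Il1f9.

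The receptor entries were also read as pairs, since most receptors need both chains. Of 19 textbook pairs, 10 had both chains at 1 FPKM or more in both genotypes and 6 had both at 5 FPKM or more. Those 6 were for IL-18, IL-10, IL-25, IL-6, IL-27 and IL-3. Of them, the IL-18 pair alone had a ligand entry among the members of at least 1 FPKM in either genotype. The IL-27 ligand was read as Il27 alone, without its second subunit Ebi3. Ebi3 is not a member and was 6.56 FPKM in Hdac3 KO cells and 6.52 FPKM in WT cells. The ratio of Il18r1 to Il18rap was 1.11 in Hdac3 KO cells and 0.882 in WT cells, and that of Il10ra to Il10rb was 1.32 in Hdac3 KO cells and 0.903 in WT cells. The order of both pairs thus differed between the genotypes, with the ligand-binding chain the higher in Hdac3 KO cells and the lower in WT cells. Only the ligand-binding chain of each pair passed the authors' test, and the difference between the chains was not tested.

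The pairs with both chains at 1 FPKM or more, but not both at 5 FPKM or more, were for IL-12, IL-11, IL-36 and IL-28. Of the pairs outside the 10, the IL-5 pair had Il5ra under 1 FPKM in Hdac3 KO cells but not in WT cells. The rest of them had a chain under 1 FPKM in both genotypes. Il17ra stood beside Il17rc, its partner for IL-17A and IL-17F, at 0.141 FPKM in Hdac3 KO cells and 0.0992 FPKM in WT cells. Il12rb1 stood beside Il23r, its partner for IL-23, listed at 0 in Hdac3 KO cells and at 0.00997 FPKM in WT cells. The ST2 chain for IL-33, Il1rl1, was 0.442 FPKM in Hdac3 KO cells and 0.391 FPKM in WT cells. For IL-36, in contrast, both chains were above 1 FPKM, with Il1rl2 at 2.19 FPKM in Hdac3 KO cells and 1.98 FPKM in WT cells.

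**Figure D3:**
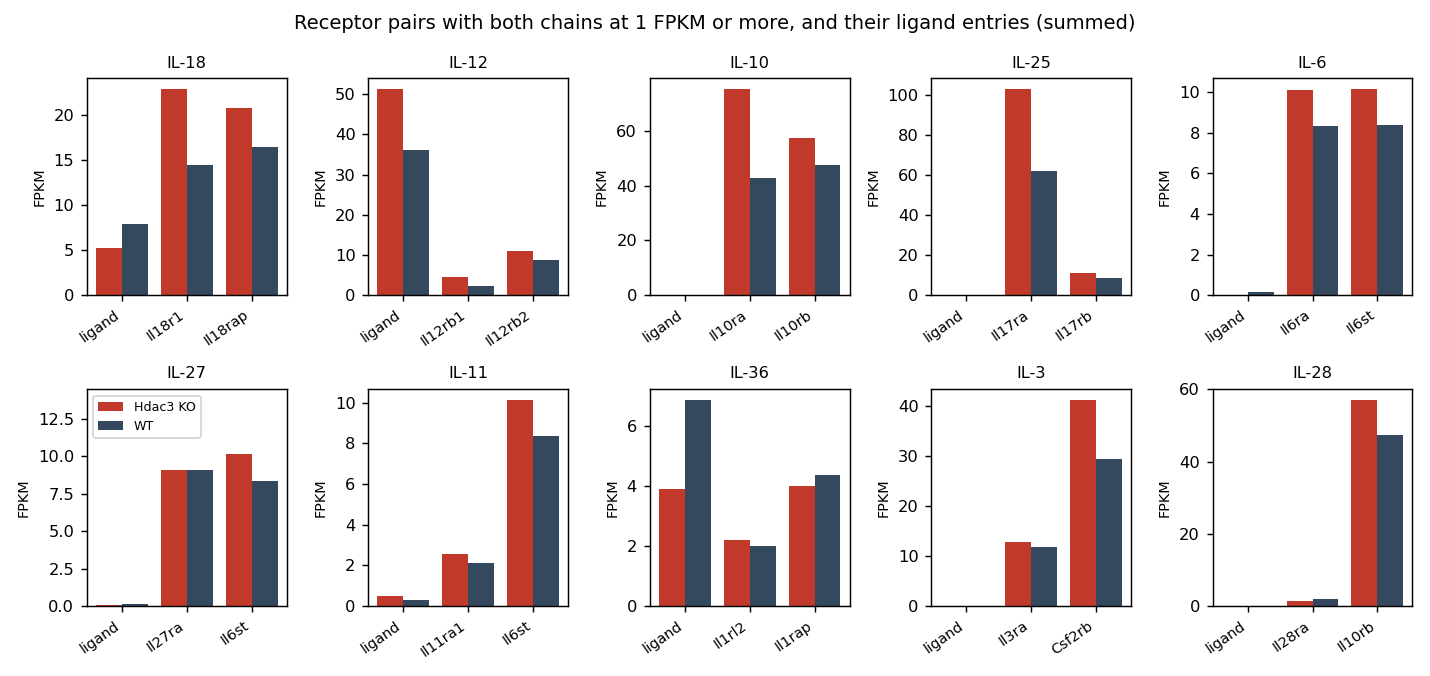
FPKM of both chains of the 10 receptor pairs with at least 1 FPKM in both genotypes, with the summed ligand entries on the left of each panel, red bars for Hdac3 KO and dark bars for WT, 1 value per genotype. Ligand bars are near 0 except for IL-18, IL-12 and IL-36, and the IL-12 ligand bar is Il12a with Il12b at or near 0. The IL-27 ligand bar is Il27 without Ebi3.

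Several members lie in clusters on the chromosomes. On chromosome 1, 6 receptor genes of the IL-1 family lie within 473 kb, from 40076212 to 40549297 of mm10. In their order along the chromosome, Il1r2, Il1r1, Il1rl2, Il1rl1, Il18r1 and Il18rap had log2 fold changes of -1.004, -0.66, 0.15, 0.18, 0.66 and 0.34, of which that of Il18r1 alone passed. The highest levels were at Il18r1 and Il18rap, at one end of the cluster. On chromosome 2, between 24153172 and 24351491, Il1f9 and Il1rn were the 2 of 6 ligand genes with a value above 0, and both fell. The Il4, Il13 and Il5 cluster on chromosome 11 and the Il24, Il20, Il19 and Il10 cluster on chromosome 1 held no tested entry, and their highest value was 0.0872 FPKM, that of Il4 in WT cells.

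**Figure D4:**
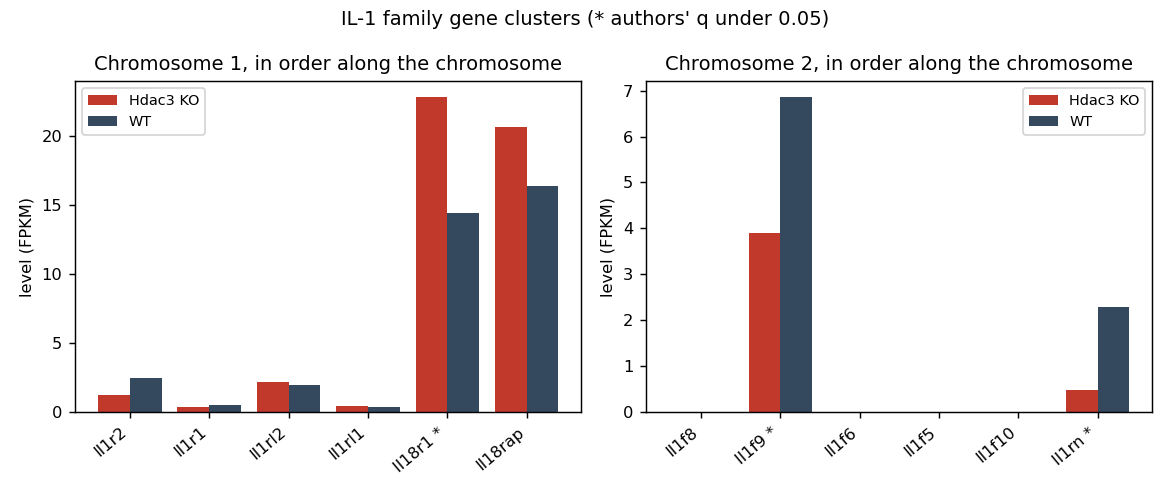
FPKM of the 6 IL-1 family receptor genes on chromosome 1 (left) and the 6 IL-1 family ligand genes on chromosome 2 (right), in order along the chromosome, red bars for Hdac3 KO and dark bars for WT. Il18r1 and Il18rap stand above the other receptors, and 4 of the 6 ligand genes are at 0.

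Genes that work with these receptors were taken from 3 further lists. Of 29 tested adaptors, kinases, STAT factors and feedback inhibitors of interleukin receptor signalling, 5 were called, beside 6.95% of all tested entries. Each of the 5 was higher in Hdac3 KO cells, beside 2.81% of all tested entries, and the median log2 fold change over the list was 0.21. Stat4, the factor activated by IL-12, was 42.2 FPKM in Hdac3 KO cells and 25.7 FPKM in WT cells, with q = 0.0029 in the authors' deposited table. Traf6, the ubiquitin ligase of IL-1 and IL-17 receptor signalling, was 33.9 FPKM in Hdac3 KO cells and 22.5 FPKM in WT cells, with q = 0.0354 in the authors' deposited table. Irs2, an adaptor of IL-4 receptor signalling whose locus is shared with another entry, was 9.57 FPKM in Hdac3 KO cells and 3.71 FPKM in WT cells. The feedback inhibitors Cish and Socs2 also rose. Cish and Socs2 were 15.7 and 41.3 FPKM in Hdac3 KO cells, against 3.10 and 17.9 FPKM in WT cells. The most abundant of the list, Jak1, was 108 FPKM in Hdac3 KO cells and 85.1 FPKM in WT cells and did not pass.

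Of 16 tested partner receptors and related cytokines, 1 rose and 1 fell, beside 2.81% and 4.14% of all tested entries. The median log2 fold change over the list was 0.40. Ifngr2, a chain of the interferon gamma receptor, was 56.2 FPKM in Hdac3 KO cells and 30.1 FPKM in WT cells, with q = 0.0016 in the authors' deposited table. Csf3r, the granulocyte colony-stimulating factor receptor and itself one of the myeloid markers, was 3.02 FPKM in Hdac3 KO cells and 9.56 FPKM in WT cells. Csf2rb, a signalling chain for IL-3 and IL-5, was 41.3 FPKM in Hdac3 KO cells and 29.5 FPKM in WT cells and did not pass. The related chain Csf2rb2 was 70.3 FPKM in Hdac3 KO cells and 49.5 FPKM in WT cells and did not pass either.

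Of 18 tested inflammasome and interleukin processing genes, 1 was called, beside 6.95% of all tested entries. The median log2 fold change over the list was 0.18. The called gene was Nlrp1b, an inflammasome sensor that rose, at 0.955 FPKM in Hdac3 KO cells and 0.369 FPKM in WT cells, q = 0.0104 in the authors' deposited table. Casp1, which cuts the IL-1 beta and IL-18 precursors, was 34.2 FPKM in Hdac3 KO cells and 28.5 FPKM in WT cells and did not pass. Zfp36, which promotes decay of cytokine mRNAs, was 90.9 FPKM in Hdac3 KO cells and 121 FPKM in WT cells and did not pass.

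**Figure D5:**
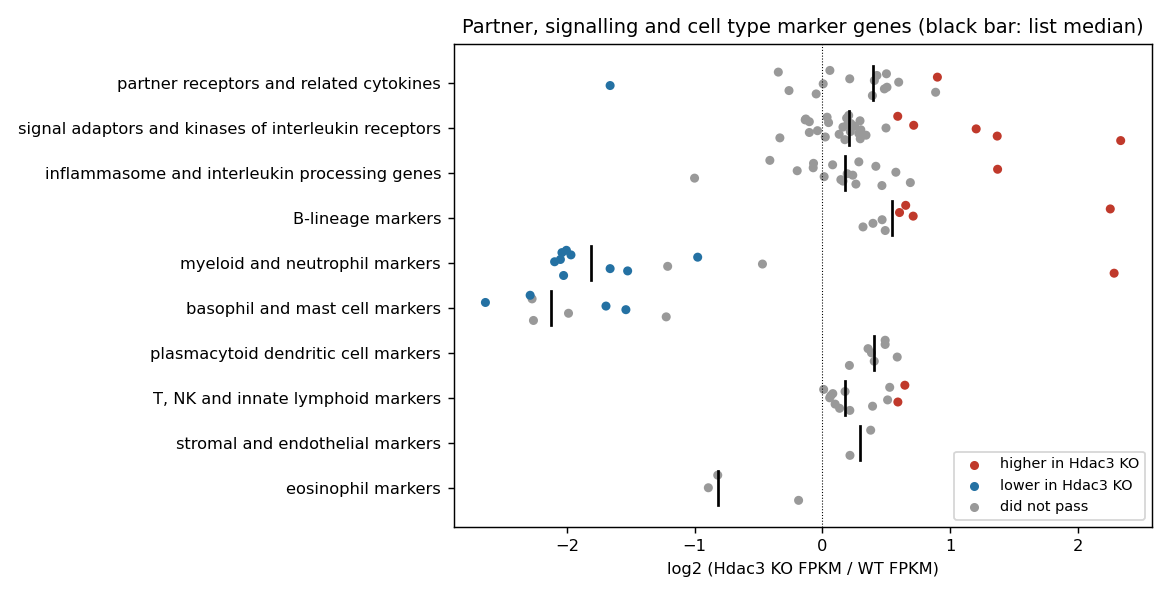
Log2 ratio of the Hdac3 KO to the WT level for tested genes of 3 lists of partner, signalling and processing genes and of 7 cell type marker lists, 1 point per gene, coloured by the authors' q-value under 0.05, with a black bar at the list median. Myeloid and basophil markers have medians of -1.81 and -2.12, and B-lineage markers 0.55.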

How the data were processed

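Polyadenylated RNA was sequenced in 4 libraries, 2 per genotype. The tools named in the submitters' processing notes are Cuffdiff 2.1.1, TopHat2 2.0.11 and Trimmomatic 0.32, with the mm10 build. For their options, the annotation, strand and scaling, nothing is given in the sources used here. The authors deposited 1 FPKM value per entry and genotype, a test statistic (a score) and a p-value with its q-value, per the file headers. No value per library was used, so p-values rest on the authors' model.

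Log2 fold changes are Hdac3 KO over WT, from the FPKM values with no pseudocount. Entries were called at the authors' q-value under 0.05, adjusted over all 12683 tested entries. The smallest deposited p-value is 5e-05, so entries at it cannot be ranked. Alternatives varied the q threshold, fold, level, pseudocount, centring and shared loci, and replaced p by a normal approximation to the statistic. The members and gene lists were chosen with earlier results of these data known. Named in full were called members, members of at least 5 FPKM, and tested members with a log2 size of at least 1. The adjustment of p-values was tested on simulated data. Positions count from 1. Tools were scipy 1.17.1, numpy 2.4.6, pandas 2.3.3 and matplotlib 3.10.9 under Python 3.11.15.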

Additional observations from a re-analysis of the deposited data

How the results depend on the processing

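No paired analysis was possible because the table holds 1 value per genotype, and leaving out each replicate was not run for the same reason. Depth is unknown, so values under about 1 FPKM carry an unknown counting error. The counts of called members depended most on the test. By a normal approximation to the authors' statistic, 0 members were higher and 2 lower, which were 2 of the 4 lower ligands, with 0 higher ligands and 0 receptors in either direction. Over all tested entries that approximation called 1.08% as higher and 2.65% as lower, where the authors' q-value called 2.81% and 4.14%. With at least a 2-fold difference, 1 member was higher and 3 lower, with 0 ligands and 1 receptor higher and 0 receptors lower. The shares of all tested entries were then 1.02% and 2.33%. At q under 0.01, 3 members were lower and 0 receptors lower, and at q under 0.10, 2 receptors were lower. Of all tested entries, 2.72% were lower at q under 0.01 and 5.31% at q under 0.10. Of the partner, signalling and processing genes, 4 were higher by the normal approximation and 4 with at least a 2-fold difference, against 7 by q under 0.05. In the same order, 1.08%, 1.02% and 2.81% of all tested entries were higher. The median log2 fold change of tested ligands was -0.38 with a pseudocount of 1 FPKM and -0.70 among entries of at least 1 FPKM, and that of tested receptors was 0.10 with a pseudocount of 1 FPKM. Of the 22 members named in full, Il27ra changed sign on centring, to -0.022, and 4 moved by more than their error with a pseudocount of 1 FPKM: Il1b to -1.47, Il1rn to -1.15, Il5ra to -0.53 and Il17c to -0.38. The cause of these changes was not tested, except that a pseudocount shrinks differences of low entries by its construction.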

Other observations

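Il4i1, an amino acid oxidase whose name begins like an interleukin, was listed at 0 in Hdac3 KO cells and at 0.00877 FPKM in WT cells. Its locus in the table also holds Nup62, at 48.1 FPKM in Hdac3 KO cells and 59.4 FPKM in WT cells, and a read-through entry of both genes at 1.95 FPKM in Hdac3 KO cells and 1.598 FPKM in WT cells. Of the exon bases annotated to Il4i1, 83.9% are shared with Tbc1d17, which was 22.6 FPKM in Hdac3 KO cells and 17.9 FPKM in WT cells, so the assignment of fragments at this locus is uncertain.

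Of 5 stromal and endothelial markers, Pecam1 was 62.9 FPKM in Hdac3 KO cells and 48.3 FPKM in WT cells, Cdh5 was 18.7 FPKM in Hdac3 KO cells and 16.1 FPKM in WT cells, and Col3a1 was at 0 in both genotypes. Neither Pecam1 nor Cdh5 passed the authors' test. Col1a1 and Cxcl12 were not tested, at 0.103 and 0.294 FPKM in Hdac3 KO cells and 0.0428 and 0.233 FPKM in WT cells. Il7, a stromal cytokine, was 0.142 FPKM in Hdac3 KO cells and 0.162 FPKM in WT cells and was not tested.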
